A study of Mus musculus with 22 samples.

Results

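Female mouse germ cells without a working Tet1 gene were compared between E14.5 and E12.5 (embryonic days). The libraries were chosen by their labels alone (female, Tet1-KO, E12.5 or E14.5), which gave 4 of the 22 libraries of the series, 2 at each stage. All 37991 genes of the count table were considered, and 17567 of them held enough counts to be tested. The cells were labelled primordial germ cells (PGCs), from which eggs and sperm derive, sorted from single embryos whose parents were both Tet1-het GOF18∆PE-EGFP. That reporter, green fluorescent protein under Pou5f1 regulatory sequence without the proximal enhancer, belonged to every group used here. Female Tet1-WT and male Tet1-KO germ cells of the same cross and stages, again 2 libraries each, served for comparison. No group received a treatment according to the labels. The genotype is that of the embryo, so cells around the Tet1-KO germ cells lacked Tet1 as well. RNA of 2 to 6 embryos of one genotype, stage and sex was pooled for a library, equivalent to 1000 to 8000 cells, and amplified before sequencing. Values are therefore given for each pool (n = 2 per group), and p-values measure the spread between such pools. The table puts one header over both Tet1-KO libraries of a stage, so they are called the first and the second library, by their place and with no other meaning.

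Between these stages germ cells of the mouse ovary stop dividing by mitosis and enter the first meiotic prophase, in which homologous chromosomes pair, form the synaptonemal complex and recombine. Signals of the ovary switch on Stra8, whose product works with MEIOSIN (Gm4969 in the table) to activate meiotic genes, while genes of pluripotency and of early PGCs are switched off. TET1 oxidises 5-methylcytosine in DNA, and in female germ cells it is known as a factor that helps meiotic genes to become active.

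The labels were checked on the counts first. Tet1 stood at 53.1 and 68.9 CPM (counts per 1000000 of the scaled library total) in the E12.5 Tet1-KO libraries and at 21 and 25.8 CPM at E14.5. In female Tet1-WT it stood at 179 and 226 CPM at E12.5 and at 35.2 and 49.2 CPM at E14.5. Tet1 reads were thus lower in Tet1-KO than in Tet1-WT at both stages without overlap, but they were not absent, and the counts do not show which exons they came from. The Y-linked genes Ddx3y, Eif2s3y, Kdm5d and Uty stayed at or under 0.132 CPM in the 4 female Tet1-KO libraries and were at 16.1 CPM or more in every male Tet1-KO library. Total counts of the 4 libraries ranged from 14087115 to 24878905. The 2 libraries of a stage had a Pearson correlation across genes of 0.978 at E12.5 and 0.935 at E14.5, on log2 CPM. The second E14.5 library held counts for 15908 genes, fewer than the 17239 of the first and the 18271 and 18944 at E12.5. At one equal depth the expected numbers were 15256 in that library and 16857, 17588 and 17645 in the others. Germ cell genes were high at both stages: Dazl, whose product binds and regulates germ cell mRNA, had 867 and 697 CPM at E12.5 and then 1839 and 1510.0 CPM. Ddx4, the germline helicase also called VASA, stood at 465 and 433 CPM and then at 765 and 695 CPM. Neither passed the test (adjusted p = 0.099 for Dazl and 0.222 for Ddx4).

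Across the genome 706 genes rose and 1233 fell from E12.5 to E14.5 in female Tet1-KO at an adjusted p under 0.05, which is 11% of the genes tested (4.02% higher and 7.02% lower). The counts of called list members below are to be read beside these shares. The change was more than 2-fold for 544 of the rises and 798 of the falls. The stages did not overlap in 705 of the 706 rises and in all 1233 falls. Lack of overlap in a called gene thus adds nothing to its call. In 122 of the falls both E14.5 libraries held 0 counts, and in 12 of the rises both E12.5 libraries did. In such bulk samples, fewer cells of a type and less RNA per cell cannot be told apart. The split of calls depended on the scaling: with plain library totals 1008 genes rose and 824 fell. In all, 825 or 720 genes were called without the first or second E12.5 library, and 1227 or 1141 without the first or second E14.5 library, against 1939 with all 4.

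Among genes of meiotic entry a few rose steeply and most were not called. Of 23 listed genes tested, 5 rose and 1 fell. Stra8, the gatekeeper of meiotic initiation, went from 4.01 and 0.987 CPM at E12.5 to 427 and 346 CPM at E14.5. The stages stood far apart in both libraries, with a log2 change of 7.18 ± 0.78 (SE, adjusted p = 0.000151). Gm4969, the partner of STRA8, went from 0.911 and 0.846 CPM to 59.3 and 42.1 CPM. Meioc, whose product stabilises the meiotic programme together with YTHDC2, went from 2.65 and 1.55 CPM to 175 and 96.6 CPM. The log2 changes were 5.83 ± 0.64 for Gm4969 (adjusted p = 0.000151) and 5.98 ± 0.90 for Meioc (adjusted p = 0.000774), and neither gene's stages overlapped. Rec8, the meiosis-specific kleisin of cohesin, went from 19.4 and 23.9 CPM to 182 and 233 CPM (log2 3.27 ± 1.01, adjusted p = 0.0487), a call that was lost whichever library was left out (0.0900 to 0.252 as adjusted p). The fifth rise of this list was Sycp3, described next. The fall was Stra6, a cell surface receptor for retinol-binding protein, named here after its values were seen. It went from 1.66 and 2.25 CPM to 0 counts in both E14.5 libraries, at least 11.8-fold lower. The other 17 members, among them the retinoic acid receptors, did not pass the test.

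Chromosome axis and synaptonemal complex genes moved together. Of 11 such genes tested 9 rose and none fell, with a median log2 change of 2.11, against a median of -0.01 over all genes tested. Sycp3, which builds the lateral element of the complex, stood at 39.8 and 37.6 CPM at E12.5 and at 492 and 293 CPM at E14.5. That was a log2 change of 3.34 ± 0.25 (adjusted p = 6.85e-06). Sycp1, the transverse filament that joins the axes, went from 36.9 and 31.3 CPM to 352 and 227 CPM (log2 3.08 ± 0.37, adjusted p = 0.000214). Syce1 of the central element went from 65.1 and 84.0 CPM to 339.6 and 305 CPM. Hormad2, a HORMA domain protein of unsynapsed axes, went from 36.7 and 37.6 CPM to 126 and 139.6 CPM. In all 4 genes both E14.5 libraries lay above both E12.5 libraries. The smallest of the 4 log2 changes was that of Hormad2, 1.84 ± 0.21 (adjusted p = 0.000151).

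The DNA in front of 3 of these genes is shown, with that of Stra8 for contrast, because promoters of germline genes are known for E-boxes (CACGTG) and for the E2F site TTCCCGC, through which they are held silent in other cells. The 4 genes were chosen for display after their promoters had been read. The stretches run from 160 to 51 bases before the RefSeq transcription start on the gene's own strand, with both motifs in capitals wherever either strand holds them (GCGGGAA is TTCCCGC on the other strand). The positions are those of the RefSeq table, build GRCm38.p6: chr10:88459427-88459536 on the plus strand for Sycp3, chr9:50561319-50561428 on the minus strand for Tex12, chr3:102936151-102936260 on the minus strand for Sycp1 and chr6:34920788-34920897 on the plus strand for Stra8.
Sycp3: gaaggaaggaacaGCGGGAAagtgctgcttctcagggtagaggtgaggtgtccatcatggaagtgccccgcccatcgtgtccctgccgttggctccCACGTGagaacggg
Tex12: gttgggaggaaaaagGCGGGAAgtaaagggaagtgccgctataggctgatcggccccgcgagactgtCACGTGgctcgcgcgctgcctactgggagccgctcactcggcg
Sycp1: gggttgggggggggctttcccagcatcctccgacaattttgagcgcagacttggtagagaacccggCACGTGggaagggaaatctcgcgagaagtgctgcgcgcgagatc
Stra8: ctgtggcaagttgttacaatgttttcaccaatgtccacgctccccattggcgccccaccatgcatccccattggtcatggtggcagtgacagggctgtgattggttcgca
The stretches of Sycp3 and Tex12 hold both motifs and that of Sycp1 holds the E-box. The stretch of Stra8 holds neither, and it has 3 CpG against 6, 12 and 9 in the others. Syce1 and Hormad2, given above among the axis genes that rose, also hold neither motif in the longer promoter stretches counted below. The motifs thus do not separate the axis genes that rose from Stra8. Levels of Tex12 are not given here.

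The same letters were counted in 250 bases before the start of every tested gene with 1 RefSeq promoter, 9828 in all. CACGTG stood in 8.16% of them and TTCCCGC, on either strand, in 6.84%. Among 36 meiotic chromosome genes with a promoter, 8 (22.2%) held CACGTG and 9 (25%) held TTCCCGC. Among 25 methylation-sensitive germline genes the numbers were 9 (36%) and 7 (28.0%). Both lists stood above the share over all promoters, but the 422 genes that rose in Tet1-KO as a whole did not for the E-box, at 7.35%. For TTCCCGC these rises stood at 9.24%. CCTCAG, the core of the motif reported for STRA8, stood in 28.9% of the rises, 20.8% of the 739 falls and 22.2% of all promoters. The median ratio of observed to expected CpG was 0.74 in rises, 0.72 in falls and 0.70 over all. These are counts of letters and say nothing about binding.

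Cohesin subunits that replace their mitotic counterparts in meiosis rose as well, with 4 of 5 tested members up and none down. Rad21l, a second meiotic kleisin, had 0 counts in both E12.5 libraries and stood at 17.1 and 8.32 CPM at E14.5, at least 75.7-fold higher when 3 counts per library stand for the zeros. Smc1b, the meiotic SMC1 subunit, went from 315 and 292 CPM to 1787 and 1328 CPM (log2 2.36 ± 0.26, adjusted p = 0.000122). Stag3, the meiotic STAG subunit, went from 185 and 295 CPM to 536 and 611 CPM (log2 1.26 ± 0.20, adjusted p = 0.00102). Smc1b and Stag3 were thus already expressed at E12.5, whereas Rad21l had counts at E14.5 and none at E12.5. In the Tet1-WT libraries Rad21l stood at 0.118 CPM and 0 counts and then at 105 and 80.7 CPM.

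Of 36 genes of break formation and recombination 14 rose and 1 fell (median log2 1.12). The count was 5 or 6 rises without the first or second E12.5 library and 9 or 10 without the first or second E14.5 library. Prdm9, the histone methyltransferase that marks recombination hotspots, went from 8.90 and 9.45 CPM to 131 and 48.6 CPM. Dmc1, the meiotic strand-exchange recombinase, went from 9.56 and 9.45 CPM to 92.5 and 75.0 CPM. Both rose without overlap of the stages, with log2 changes of 3.29 ± 0.5 for Prdm9 (adjusted p = 0.000832) and 3.14 ± 0.82 for Dmc1 (adjusted p = 0.0235). Tex15, needed for repair of meiotic breaks, went from 31.1 and 31.5 CPM to 437 and 284 CPM. Hfm1, a helicase of crossover formation, went from 34.1 and 33.8 CPM to 182 and 144 CPM, and Msh5, a MutS homologue of crossovers, went from 2.40 and 4.37 CPM to 26.4 and 19.5 CPM. Mei1, required to form breaks, went from 1.03 and 0.564 CPM to 62.4 and 44.1 CPM. All 4 were called (largest adjusted p 0.00505). The call of Dmc1 did not survive leaving out any single library (0.0502 to 0.161 as adjusted p), that of Mei1 without either E12.5 library (0.0547 and 0.0709) and that of Msh5 without the first E12.5 library (0.0528). Spo11, the enzyme that cuts the DNA, behaved otherwise: it stood at 10.2 and 16.6 CPM at E12.5 and at 12 and 6.79 CPM at E14.5, with overlap (log2 -0.51 ± 1.12, adjusted p = 0.841). In female Tet1-WT Spo11 stood at 18.2 and 13.7 CPM and then at 53.9 and 42.7 CPM, also not called (adjusted p = 0.336), and the difference between genotypes was not called either (adjusted p = 0.625).

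Telomere attachment genes were called up in 3 of 8 cases and down in 1. Terb1, Terb2 and Majin encode the complex that ties meiotic telomeres to the nuclear envelope. Terb1 went from 2.03 and 1.76 CPM to 52.8 and 31.9 CPM (log2 4.47 ± 0.51, adjusted p = 0.000151). Majin went from 0.662 CPM and 0 counts to 29.1 and 15.5 CPM, and Terb2 from 2.57 and 2.82 CPM to 35.0 and 12.7 CPM. All 3 were low or absent at E12.5 and clear at E14.5 (adjusted p = 0.00123 for Majin and 0.0118 for Terb2). Terf1, a telomere protein used in all cells, was lower by a log2 change of -0.55 (adjusted p = 0.0454), from 297 and 301 CPM to 212 and 196 CPM. The calls of Terf1 and Terb2 were lost without single libraries, with adjusted p up to 0.199 for Terf1 and 0.105 for Terb2.

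**Figure D1:**
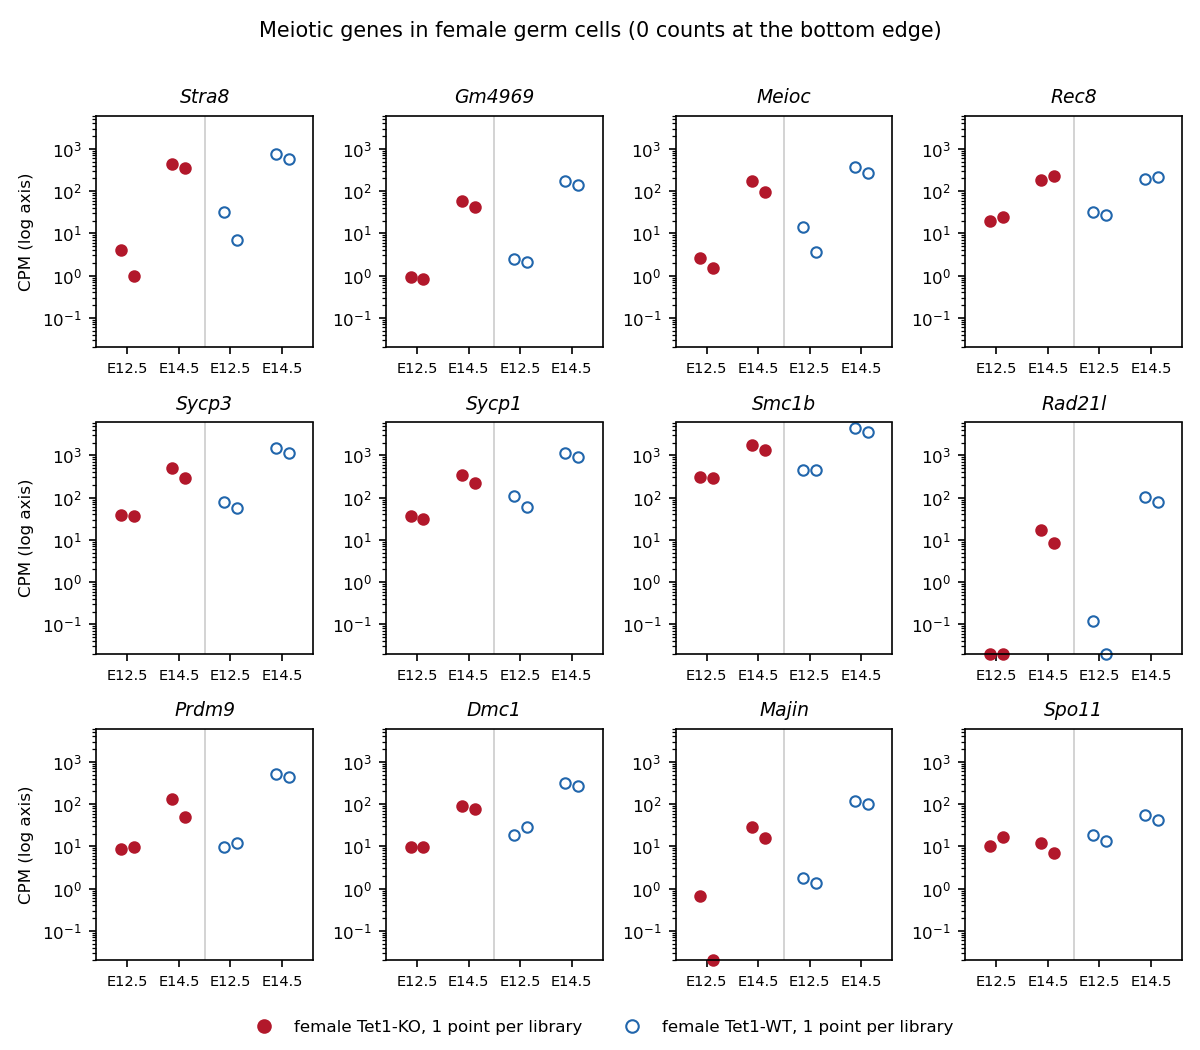
Levels in CPM on a log axis of 12 meiotic genes in each library of female Tet1-KO (filled) and female Tet1-WT (open) at E12.5 and E14.5, with 0 counts drawn at the bottom edge. In the Tet1-KO libraries Stra8, Gm4969, Meioc, Rad21l and Majin stand below 5 CPM at E12.5 and between 8.32 and 427 CPM at E14.5, while Spo11 overlaps between the stages.

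The oocyte programme was called in 3 of 21 genes, all higher at E14.5, and its median log2 change was 0.03. Figla, the transcription factor that later drives the zona pellucida genes, went from 0.207 and 0.282 CPM to 40.2 and 29.6 CPM (log2 7.15 ± 1.14, adjusted p = 0.00109). Cpeb1, which controls polyadenylation of stored mRNA, went from 58.5 and 68.9 CPM to 114 and 111 CPM (log2 0.82 ± 0.21, adjusted p = 0.0181). Msh5 was the third. Without the first E12.5 library 1 rise was called. Without single libraries Cpeb1 lost its call, with adjusted p from 0.0602 to 0.137.

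Genes that DNA methylation keeps silent outside the germline rose broadly: 21 of 30 were called higher and none lower, with a median log2 change of 1.64. The number of rises was 11 without the first or the second E12.5 library, and 14 and 16 without the first and second E14.5 library. Taf7l, a germ cell form of a TFIID subunit, went from 3.02 and 2.96 CPM to 122 and 71.7 CPM (log2 5.01 ± 0.57, adjusted p = 0.000206). Mael, a piRNA pathway protein, went from 16.2 and 21.6 CPM to 143 and 95.9 CPM (log2 2.67 ± 0.65, adjusted p = 0.0156). Stra8, Sycp1, Sycp3, Smc1b, Mei1 and Rad21l belong to this list as well, and the members that were not called included Dazl and Ddx4. Of 27 genes of the piRNA pathway 5 rose and 3 fell. Gpat2, a mitochondrial acyltransferase of that pathway, went from 90.4 and 133 CPM to 335 and 308 CPM, and Tdrd7, a Tudor protein of germ granules, from 10 and 11.3 CPM to 39.5 and 32.5 CPM. Mov10, an RNA helicase, went the other way, from 339 and 488 CPM to 129.7 and 223 CPM (log2 -1.23 ± 0.24, adjusted p = 0.00392). Prmt5, the arginine methyltransferase that marks PIWI proteins, fell from 207 and 238 CPM to 109 and 151 CPM. Mael, Gpat2, Tdrd7, Mov10 and Prmt5 each lost their call without at least 1 library, with adjusted p up to 0.137, 0.0956, 0.0741, 0.0540 and 0.129. The piRNA count was 0 rises and 3 falls without the first E12.5 library, and 1 and 0 without the second.

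Pluripotency genes fell. Of 24 tested, 13 were called lower and none higher, with a median log2 change of -1.44. Nanog, a core pluripotency factor, stood at 214 and 199.5 CPM at E12.5 and at 45.9 and 53.2 CPM at E14.5 (log2 -2.06 ± 0.39, adjusted p = 0.00315). Pou5f1, which encodes OCT4, stood at 211 and 298 CPM and then at 78.8 and 102 CPM (log2 -1.49 ± 0.29, adjusted p = 0.00381). Neither gene's stages overlapped, but both were still read at E14.5. Dppa5a, an abundant mRNA of pluripotent cells, went from 1076 and 1013 CPM to 275 and 294 CPM (adjusted p = 4.30e-05). Zfp42, also called Rex1, went from 271 and 242 CPM to 69.4 and 82.4 CPM, and Tcl1, a coactivator of AKT, from 148 and 179 CPM to 42.7 and 46.6 CPM. Tdgf1, the Nodal co-receptor Cripto, was nearly lost: 23.9 and 24.3 CPM at E12.5 against 0.857 CPM and 0 counts at E14.5 (log2 -6.00 ± 0.80, adjusted p = 0.000345). Sox2 did not pass the test, with 73.2 and 67.3 CPM at E12.5 and 35.7 and 37.6 CPM at E14.5 (adjusted p = 0.0509), although its stages did not overlap.

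Of 17 early PGC genes 5 were called lower and none higher. Ifitm3, a surface protein of newly specified PGCs, went from 611 and 549 CPM to 153 and 174 CPM (log2 -1.82 ± 0.29, adjusted p = 0.00111). Prdm14, a specification factor, went from 73.7 and 86.9 CPM to 17.2 and 36.3 CPM, and Nanos3, which protects PGCs from death, from 37.3 and 36.9 CPM to 14 and 16.6 CPM. Dppa3, also called Stella, was the most abundant, at 3047 and 2957 CPM and then 1581 and 1726 CPM (log2 -0.86 ± 0.26, adjusted p = 0.0428). The fifth was Tet1 itself, the reads of the disrupted gene, with a log2 change of -1.38 ± 0.37 (adjusted p = 0.0264). When any 1 of the 4 libraries was left out 1 or 2 genes of the list were called lower, Ifitm3 each time, and the adjusted p of Dppa3 rose to between 0.121 and 0.172. Prdm1 and Tfap2c, the other specification factors, were not called (adjusted p = 0.0531 and 0.353). Prdm1 stood at 101 and 117 CPM and then at 39.8 and 61.1 CPM, Tfap2c at 92.1 and 83.0 CPM and then at 46.5 and 68.6 CPM.

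**Figure D2:**
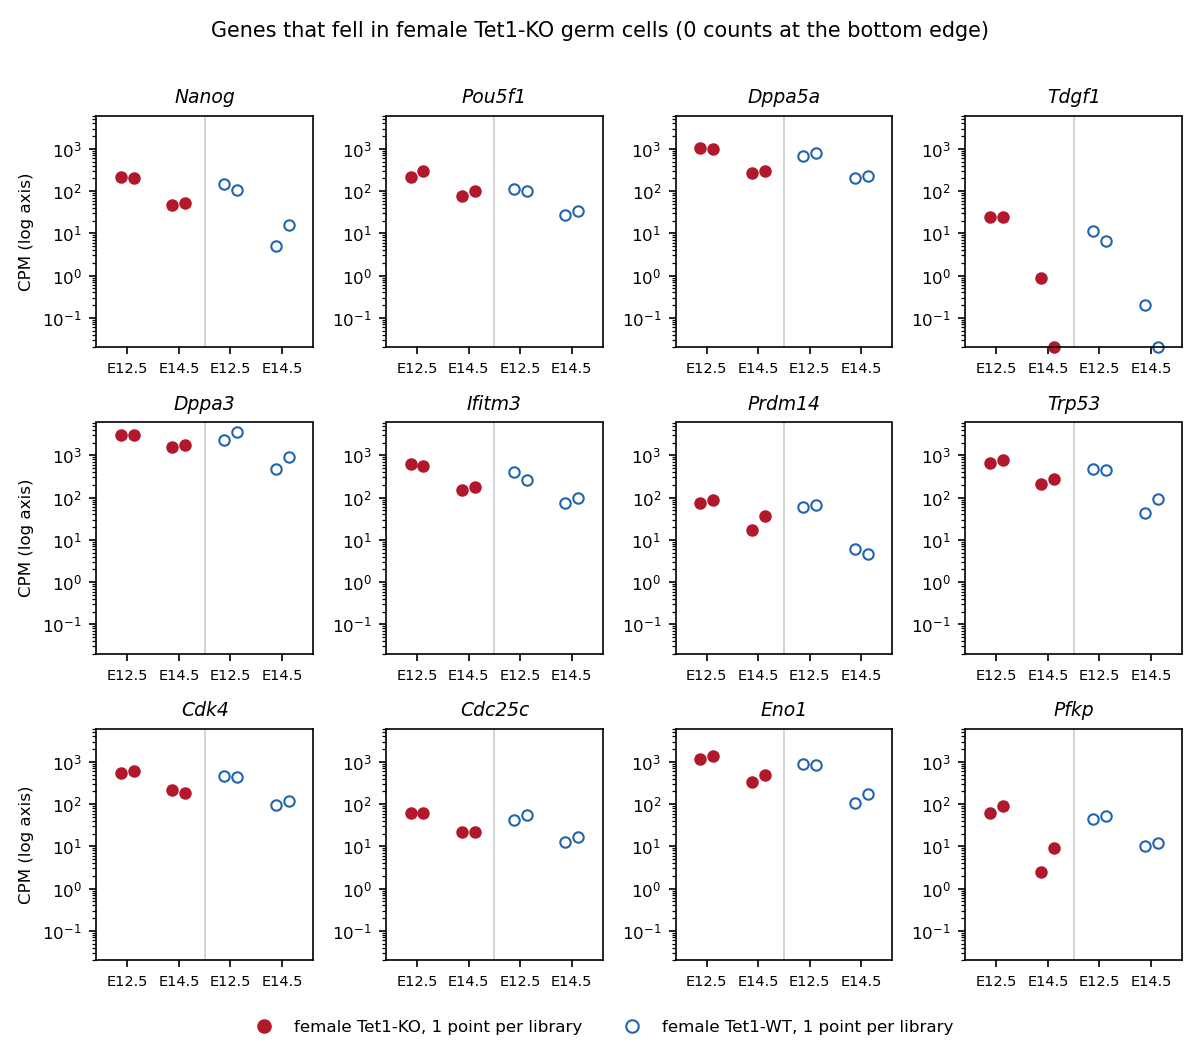
Levels in CPM on a log axis of 12 genes of pluripotency, early PGCs, the cell cycle and glycolysis in each library of female Tet1-KO (filled) and female Tet1-WT (open) at E12.5 and E14.5, with 0 counts drawn at the bottom edge. Every gene shown is lower in both E14.5 Tet1-KO libraries than in both E12.5 ones, from Tdgf1, which reaches 0, to Dppa3, which stays at 1581 CPM or more.

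Of 23 genes that write, keep or remove DNA methylation 1 rose and 5 fell, with 3 falls without the second E12.5 library. The rise was Uhrf1, which brings the maintenance methyltransferase DNMT1 to newly copied DNA. It stood at 54.4 and 43.4 CPM at E12.5 and at 154 and 183 CPM at E14.5 (log2 1.78 ± 0.30, adjusted p = 0.00143). Tdg, the glycosylase that removes oxidised cytosines, went from 47.5 and 53.2 CPM to 16.9 and 19.9 CPM (log2 -1.45 ± 0.25, adjusted p = 0.00197). Apex1, the next enzyme of base excision repair, went from 128 and 135 CPM to 56.9 and 69.0 CPM, and Trim28, which guards imprints and silences transposons, from 279 and 273 CPM to 162 and 141 CPM. Dnmt3a and Dnmt3b, the enzymes of new methylation, were not called (adjusted p = 0.204 and 0.294). Dnmt3b was low throughout, at 2.52 and 1.48 CPM and then 2.11 and 7.65 CPM. Among 18 genes of the PRC1.6 complex, a repressor of germline genes, and its partners, Cbx3 and Hdac1 fell and Yaf2 rose. Over all genes tested 7.02% fell and 4.02% rose, so these few calls give no direction for the list. Cbx3, a heterochromatin protein, went from 169.6 and 155 CPM to 109 and 109 CPM (adjusted p = 0.0410), Hdac1, a histone deacetylase, from 444 and 646 CPM to 252 and 340.1 CPM (adjusted p = 0.0274). Yaf2, a RING1 partner, went from 10.1 and 5.43 CPM to 37.0 and 16.7 CPM (adjusted p = 0.0158). Without single libraries the adjusted p reached 0.219 for Cbx3, 0.237 for Hdac1 and 0.180 for Yaf2.

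Of 30 genes of spindle and division 8 were called lower and none higher (median log2 -0.46). Cdc25c, the phosphatase that triggers mitosis, went from 61.5 and 61.0 CPM to 22.0 and 21.3 CPM (log2 -1.50 ± 0.21, adjusted p = 0.000436). Ccnb1, mitotic cyclin B1, went from 1222 and 1168 CPM to 467 and 508 CPM (adjusted p = 0.0107). The Aurora kinases behaved alike: Aurkb went from 91.2 and 113 CPM to 32.0 and 45.8 CPM and Aurka from 191 and 241 CPM to 94.6 and 101 CPM. Of 38 replication genes 9 fell and 1 rose (median log2 -0.48). Rrm1, of the enzyme that makes deoxynucleotides, went from 687 and 746 CPM to 390.1 and 456 CPM (adjusted p = 0.00265), and Mcm4, of the replicative helicase, from 553 and 696 CPM to 266 and 371 CPM (adjusted p = 0.00557). Ccnb1, Aurka and Mcm4 lost their calls without at least 1 library (adjusted p up to 0.0712, 0.0755 and 0.0649). Both counts were small without one library: between 2 and 5 falls of the spindle list and between 1 and 6 of the replication list.

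Among 21 G1 genes 3 rose and 3 fell. There were 0 rises and 1 fall without the first or the second E12.5 library, 1 and 2 without the first E14.5 library, and 2 and 3 without the second. Cdk4, the kinase partner of D-type cyclins, went from 551 and 600.3 CPM to 221 and 186 CPM (log2 -1.50 ± 0.14, adjusted p = 3.79e-05). Ccnd1, cyclin D1, went from 4.35 and 4.79 CPM to 35.5 and 22.6 CPM, and Ccne2, cyclin E2, from 31.7 and 41.0 CPM to 171 and 79.5 CPM. The third rise was the inhibitor Cdkn1c, described below with the imprinted genes. E2f3, a transcription factor of the G1 to S step, went from 19.5 and 18.4 CPM to 8.57 and 4.68 CPM (adjusted p = 0.0203). Of 26 cell death genes 4 fell and 1 rose, and without 1 library 2 to 6 fell (6 without the first E14.5 library) and none rose. Trp53, which encodes p53, went from 644 and 759 CPM to 205 and 272 CPM (log2 -1.56 ± 0.30, adjusted p = 0.00393). Chek2, a kinase of the DNA damage checkpoint, went from 90.8 and 92.1 CPM to 43.3 and 31.4 CPM, and Bad, a promoter of cell death, from 45.1 and 47.8 CPM to 27.5 and 21.1 CPM. Bcl2l1, which encodes the survival protein BCL-XL, rose from 74.6 and 73.0 CPM to 139 and 124 CPM (adjusted p = 0.0354). Cdk4, Trp53 and Chek2 were called whichever of the 4 libraries was left out. The calls of Ccnd1, Ccne2, E2f3, Bad and Bcl2l1 were lost without at least 1, with adjusted p up to 0.0806, 0.117, 0.157, 0.131 and 0.200.

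Glycolysis genes fell in number, with 10 of 22 lower and 1 higher and a median log2 change of -0.87. The count of falls stayed at 8 or 9 whichever of the 4 libraries was left out. Pfkp, a phosphofructokinase, went from 60.9 and 92.5 CPM to 2.50 and 9.36 CPM (log2 -3.67 ± 0.47, adjusted p = 0.000284). Eno1, enolase 1, went from 1195 and 1388 CPM to 336 and 488 CPM (log2 -1.65 ± 0.21, adjusted p = 0.000281). Pkm, pyruvate kinase, went from 3049 and 4479 CPM to 1194 and 1716 CPM (adjusted p = 0.000534), and Pgam1, phosphoglycerate mutase 1, from 165 and 159 CPM to 55.1 and 86.0 CPM. None of these 4 genes had overlapping stages, as in nearly all called genes. Of 86 ribosomal protein genes 8 fell and none rose, against 7.02% lower and 4.02% higher over all genes tested. The falls were 3 and 5 without the first and second E12.5 library, and 5 and 2 without the first and second E14.5 library. Their median log2 change was -0.13, and 0.04 with plain library totals, so no direction is given for the family. Rplp0, of the ribosomal stalk, went from 2495 and 2364 CPM to 1219 and 1094 CPM (adjusted p = 0.000852).

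Of 19 genes of male germ cell differentiation 6 fell and 1 rose. There were 4 and 3 falls without the first and second E12.5 library, 4 without the first E14.5 library, each with 0 rises, and 2 falls and 2 rises without the second E14.5 library. Lefty2, an inhibitor of Nodal, went from 17.7 and 9.66 CPM to 0.989 CPM and 0 counts (log2 -5.01 ± 1.00, adjusted p = 0.00505). Lefty1, its neighbour in function, went from 2.77 and 5.00 CPM to 0 counts and 0.0450 CPM (adjusted p = 0.0142). Dusp6, a feedback phosphatase of the ERK pathway, went from 96.7 and 111 CPM to 23.9 and 47.3 CPM (adjusted p = 0.00407). Of 21 genes of BMP and WNT response 1 rose and 1 fell, with 0 calls without either E12.5 library or the second E14.5 library. These counts are near the shares over all genes tested, 4.02% higher and 7.02% lower. Msx1, a BMP target that promotes meiosis in the ovary, went from 13.6 and 13.1 CPM to 57.4 and 68.1 CPM (log2 2.23 ± 0.56, adjusted p = 0.0189). Bmp4, a ligand of that pathway, went from 4.93 and 3.88 CPM to 0.659 and 0.900 CPM (adjusted p = 0.0383). Xist, the RNA that coats the inactive X chromosome and disappears as germ cells reactivate it, went from 2.28 and 2.40 CPM to 0.198 CPM and 0 counts (adjusted p = 0.0185). Dusp6 kept its call without any 1 library, while the adjusted p reached 0.0521 for Lefty2, 0.0941 for Lefty1, 0.140 for Msx1, 0.166 for Bmp4 and 0.131 for Xist.

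The 12 largest rises, ranked by log2 change among genes at 5 CPM or more, included Rad21l, Cfi, Lypd4, H2-Ab1, Stra8, Figla, Tex16, H2-D1, Mei1, Meioc and Majin. H2-D1, a class I histocompatibility gene, went from 1.03 and 1.97 CPM to 107 and 94.2 CPM (log2 6.11 ± 0.56, adjusted p = 3.79e-05). H2-Ab1, a class II gene otherwise typical of antigen-presenting cells, went from 0.0414 CPM and 0 counts to 9.76 and 8.59 CPM (adjusted p = 0.00715). The macrophage markers Csf1r and Cx3cr1 were low at E12.5, at 2.36 and 1.83 CPM and at 3.89 and 1.62 CPM. Both had 0 counts in both E14.5 libraries. Which cells the H2-Ab1 reads came from was not tested. Lypd4, of the Ly6 family of surface proteins, went from 0 counts and 0.141 CPM to 70.9 and 29.5 CPM. Cfi, complement factor I, went from 0 counts in both libraries to 3.49 and 9.72 CPM, at least 39.4-fold higher. The calls of H2-Ab1, Mei1 and Tex16 were lost without an E12.5 library, with adjusted p up to 0.0748, 0.0709 and 0.0702.

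The 12 largest falls were Dusp27, Lpar6, Pde6b, Trim43b, Plat, Nid1, Ceacam10, Tgfb2, Ptn, Etv1, Foxi1 and Otog. The first 9 had 0 counts in both E14.5 libraries. Dusp27, an atypical phosphatase, stood at 7.12 and 12.4 CPM at E12.5 and was at least 58.7-fold lower at E14.5. Lpar6, a receptor for lysophosphatidic acid, stood at 8.82 and 6.98 CPM and was at least 47.5-fold lower. Etv1, an ETS family transcription factor, went from 10.7 and 10.3 CPM to 0.132 CPM and 0 counts (log2 -7.42 ± 0.77, adjusted p = 8.06e-05). Ptn, a secreted growth factor of mesenchyme, stood at 4.88 and 5.29 CPM before it was lost. In Tet1-WT it stood at 139 and 164 CPM at E12.5 and at 2.32 and 1.06 CPM at E14.5. The calls of Trim43b, Foxi1 and Otog were lost without at least 1 library (adjusted p up to 0.106, 0.111 and 0.179). The E14.5 stage held the library with the fewest genes, and without that library 456 genes rose and 685 fell.

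Markers of other cells in the gonad were low in the Tet1-KO libraries but not absent. The 19 mesenchyme markers together gave 78.3 and 82.0 CPM at E12.5 and 34.8 and 36.8 CPM at E14.5, and 4 of 18 tested were called lower. That count was 1 and 2 without the first and second E12.5 library, 6 and 1 without the first and second E14.5 library, and 0 when only these groups entered the fit. Nr2f2, a nuclear receptor of mesenchyme, went from 13.7 and 13.5 CPM to 1.85 and 4.50 CPM (adjusted p = 0.00780, and 0.0732 without the first E14.5 library). The 19 markers of ovarian supporting cells summed to 18.2 and 13.9 CPM and then to 12.9 and 17.5 CPM. Of these, 1 of 18 tested, Kitl, was called, from 5.46 and 3.03 CPM to 1.39 and 0.720 CPM, and 6 and 11 of the 19 were at 0 in the E14.5 libraries. Over all genes tested 7.02% were called lower. The 18 endothelial and blood markers summed to 361 and 420 CPM and then to 128 and 221 CPM. Most of that sum was Pecam1, which germ cells also make, at 329 and 398 CPM and then 118 and 211 CPM. The 11 erythroid genes in the table summed to 83.0 and 26.2 CPM and then to 7.65 and 20.6 CPM. The 25 stress and dissociation genes summed to 4505 and 5352 CPM and then to 2546 and 3003 CPM, with Hspa8, a constitutive chaperone, making up most of it. Of 23 tested, 4 were called lower (2 without the first or the second E12.5 library), among them the immediate early gene Egr1, from 4.14 and 2.96 CPM to 0.132 CPM and 0 counts. The part of these markers in the stage changes was not tested.

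**Figure D3:**
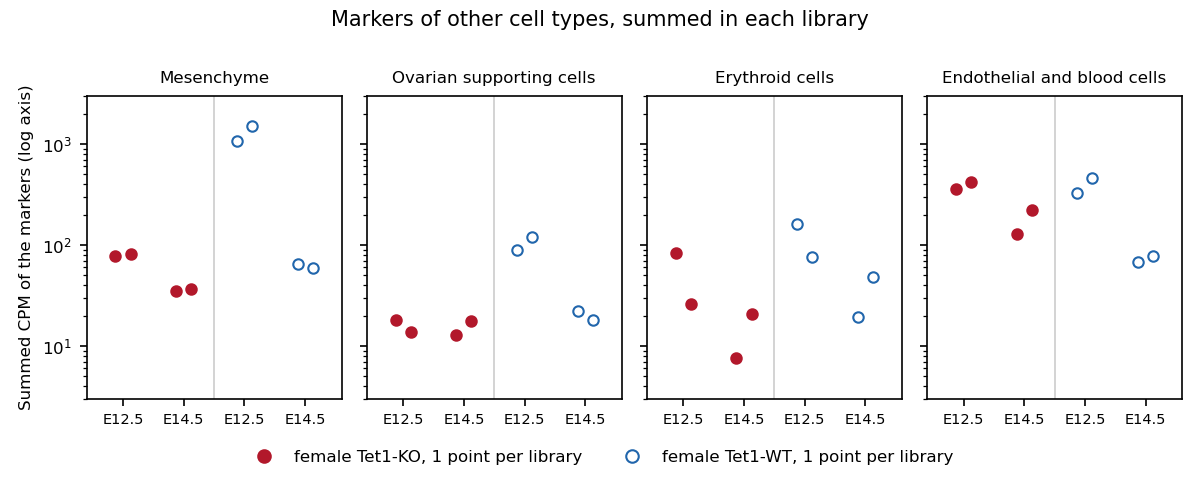
Summed CPM on a log axis of marker genes of mesenchyme, ovarian supporting cells, erythroid cells, and endothelial and blood cells in each library of female Tet1-KO and female Tet1-WT at E12.5 and E14.5. Mesenchyme markers stand at 1079 and 1494 CPM in the E12.5 Tet1-WT libraries and at 82.0 CPM or less in the 4 Tet1-KO libraries.

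The same stages in female Tet1-WT gave 4446 called genes, 1987 higher and 2459 lower (25.3% of those tested), from libraries that the Tet1-KO comparison does not share. Of the 706 genes that rose in Tet1-KO, 559 also rose in Tet1-WT, which is 79.2% of the Tet1-KO rises and 28.1% of the Tet1-WT rises. Of the 1233 falls 935 were shared, 75.8% of those in Tet1-KO and 38.0% of those in Tet1-WT. Genes called in opposite directions numbered 6 and 3. Among the 559 shared rises the log2 change was smaller in Tet1-KO for 431 (77.1%), with medians of 1.41 in Tet1-KO and 2.05 in Tet1-WT. Among the 935 shared falls it was smaller for 644 (68.9%), with medians of -1.23 and -1.67. For single genes the test of the difference below called few. On simulated counts with 200 genes changed, that test recovered 22% of 4-fold and 1% of 2-fold changes. A difference that was not called is therefore no evidence of an equal change.

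**Figure D4:**
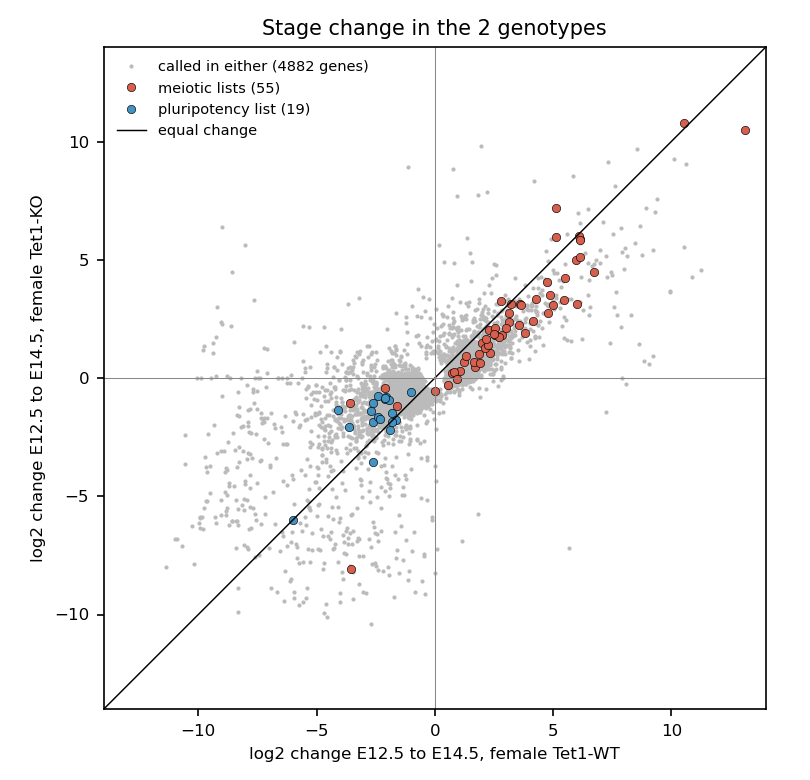
Log2 change from E12.5 to E14.5 in female Tet1-KO against that in female Tet1-WT, for genes called in either, with listed meiotic and pluripotency genes coloured and the line of equal change. Meiotic genes lie mostly below the line on the right, as for Sycp3 with 3.34 in Tet1-KO and 4.27 in Tet1-WT, and for called Tet1-KO rises the sign was the same in Tet1-WT in 95% of genes.

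By list, the Tet1-WT stage change called 10 of 11 axis and synaptonemal genes higher (9 in Tet1-KO), 25 of 36 recombination genes (14) and 22 of 30 methylation-sensitive germline genes (21). Median log2 changes were 2.86 against 2.11, 2.05 against 1.12 and 2.50 against 1.64. For cohesin genes the medians were 2.80 in Tet1-WT against 2.36 in Tet1-KO. Other meiotic lists had the larger median in Tet1-KO: meiotic entry, with 0.36 in Tet1-WT against 0.86, and telomere attachment, with 2.08 against 2.54. Pluripotency genes were called lower in 19 of 24 (13 in Tet1-KO) and early PGC genes in 13 of 17 (5). Sycp3 reached 1457 and 1166 CPM in the E14.5 Tet1-WT libraries, above both Tet1-KO values, from 79.7 and 56.3 CPM. Prdm9 reached 524 and 441 CPM from 9.60 and 12 CPM. Stra8 reached 766 and 575 CPM from 31.3 and 6.94 CPM, a log2 change of 5.14 against 7.18 in Tet1-KO. The difference between genotypes was not called for any of these 3 genes (adjusted p = 0.187, 0.12 and 0.295). When single libraries were left out, the log2 difference lay between -1.35 and -0.60 for Sycp3 and between -3.07 and -1.64 for Prdm9. For Stra8 it lay between 0.57 and 3.50. The lowest values of Sycp3 and Prdm9 came without the first E14.5 Tet1-KO library. That fit kept only the E14.5 Tet1-KO library with the fewest genes. A called change in one genotype and not in the other is no test of a difference.

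**Figure D5:**
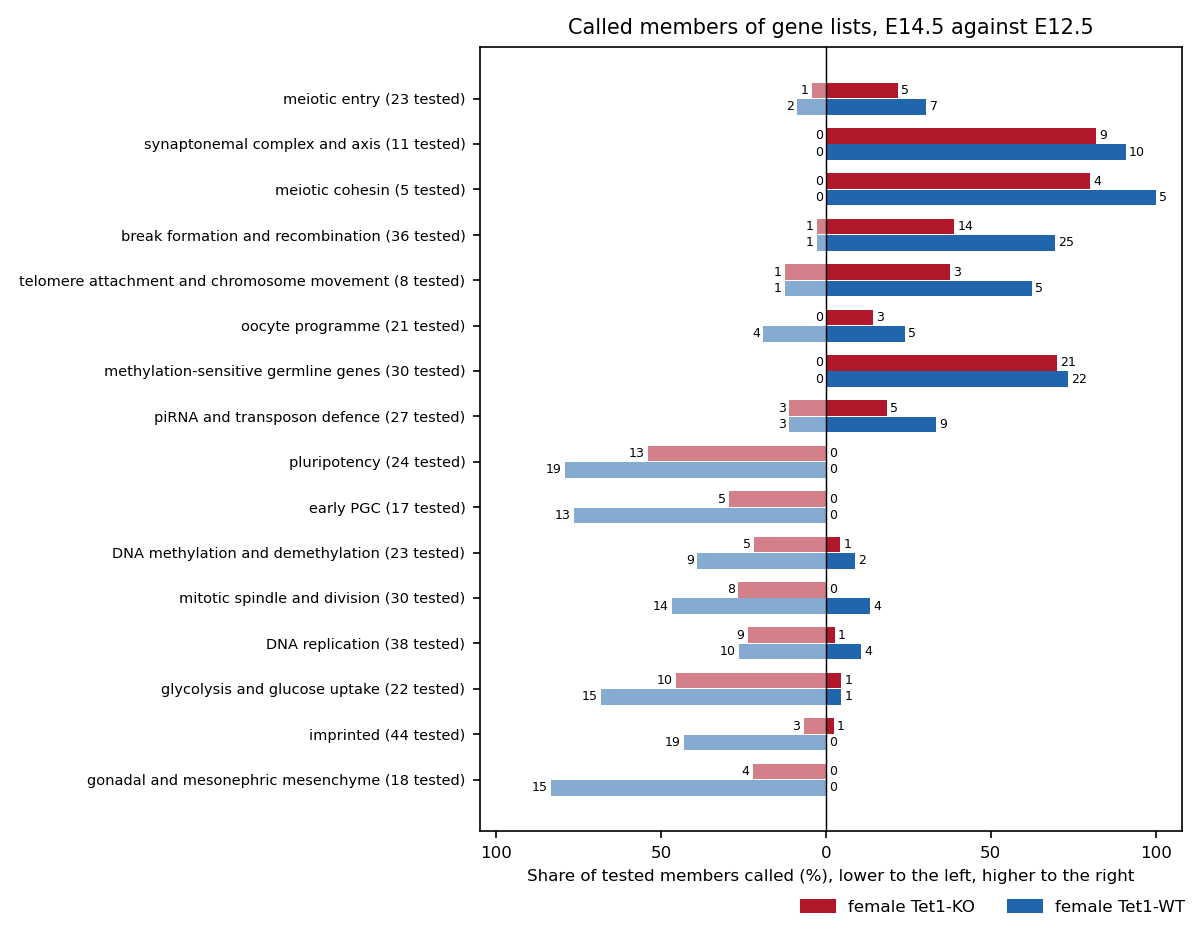
Share of tested members called higher (right) and lower (left) from E12.5 to E14.5 in 16 gene lists, in female Tet1-KO and in female Tet1-WT, with the number called of the number tested. Axis and synaptonemal genes stand at 9 of 11 in Tet1-KO and 10 of 11 in Tet1-WT, recombination genes at 14 and 25 of 36.

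The difference itself, the Tet1-KO change minus the Tet1-WT change, was called for 229 genes (1.30%), 130 positive and 99 negative. Of the lists of meiotic entry, axis, cohesin, recombination and telomere genes, 1 member was among them: Atr, a checkpoint kinase active on meiotic chromosomes. It was named after its values were seen and rose in both genotypes, from 109 and 116 CPM to 219.7 and 243 CPM in Tet1-KO and from 119.9 and 98.9 CPM to 609 and 509 CPM in Tet1-WT (difference -1.32 ± 0.29 on the log2 scale, adjusted p = 0.0377). The largest negative differences among genes at 5 CPM or more were those of Ttc26, Cant1, Pcx, Pdlim5, Atf7ip2 and Slc35c2. Pcx, pyruvate carboxylase, stood at 103 and 133 CPM and then 167 and 163 CPM in Tet1-KO, and at 82.8 and 54.1 CPM and then 502 and 435 CPM in Tet1-WT (difference -2.29, adjusted p = 0.0201). Pdlim5, of the actin cytoskeleton, stood at 35.7 and 33.6 CPM and then 60.6 and 54.2 CPM in Tet1-KO, and at 25.3 and 19.3 CPM and then 177 and 134 CPM in Tet1-WT (difference -2.08, adjusted p = 0.0137). All 99 genes with a negative difference had a lower mean in Tet1-KO than in Tet1-WT at E14.5, and 5 of the 99 had one at E12.5. The genes were picked by this difference in the same libraries, so these counts follow largely from the selection.

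Of the 130 genes with a positive difference, 113 had a lower mean in Tet1-KO than in Tet1-WT at E12.5, and 13 had one at E14.5. These counts too follow largely from the selection. The largest positive differences were those of Prps2, Unc5c, Dhrs3, Prkce, Mep1b and Cthrc1. Unc5c, a netrin receptor, stood at 0.166 and 0.634 CPM and then 1.98 and 1.39 CPM in Tet1-KO, and at 19 and 26.5 CPM and then 0.906 and 0.848 CPM in Tet1-WT (difference 6.84, adjusted p = 0.0128). Mesenchyme markers were among them, 5 of 18 tested. Nr2f2 stood at 226 and 437 CPM in the E12.5 Tet1-WT libraries and at 6.80 and 5.41 CPM at E14.5 (difference 3.69, adjusted p = 0.0180). The summed mesenchyme markers of Tet1-WT went from 1079 and 1494 CPM to 64.5 and 58.9 CPM. Imprinted genes gave 8 of 44 positive differences and none negative, against 0.740% and 0.564% of all genes tested. The stage change in Tet1-KO was called higher in 4.02% of all genes tested and lower in 7.02%. In Tet1-KO itself 1 imprinted gene rose and 3 fell, and without 1 library 1 or 2 fell. Cdkn1c, a maternally expressed inhibitor of CDKs, rose in Tet1-KO from 23.6 and 21.2 CPM to 62.6 and 44.9 CPM (log2 1.26 ± 0.36, adjusted p = 0.0369, and 0.222 without the second E12.5 library) and went from 129 and 226 CPM to 48.8 and 42.9 CPM in Tet1-WT (difference 3.21, adjusted p = 0.0145). Peg3, a paternally expressed zinc finger gene, fell in Tet1-KO from 476 and 490.4 CPM to 189 and 293 CPM (adjusted p = 0.0126, and 0.124 without the first E14.5 library) and stood at 729 and 639 CPM and then 151 and 114 CPM in Tet1-WT. The mesenchyme markers moved with these differences in the same libraries, and their part in them was not tested.

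Of the genes given here, Atr, Pcx, Pdlim5, Unc5c, Nr2f2 and Cdkn1c each lost the called difference without at least 1 of the 8 libraries, with adjusted p up to 0.198, 0.0967, 0.0964, 0.0964, 0.117 and 0.0967. The count of called differences also depended on single libraries. It was 20 without the first and 0 without the second E12.5 Tet1-KO library, 389 and 28 without the first and second E14.5 Tet1-KO library, 521 and 12 without E12.5 Tet1-WT replicates 1 and 2, and 0 and 125 without E14.5 Tet1-WT replicates 1 and 2. In the cases with 0, by edgeR, 1857 and 1668 genes had an unadjusted p under 0.05. With plain library totals 258 differences were positive and 33 negative, around a median over all genes of 0.25.

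Male Tet1-KO germ cells, which do not enter meiosis at this age, gave 966 rises (5.50%) and 855 falls (4.87%) over the same stages, 10.4% of the genes tested together. The change in females minus that in males was called for 895 genes (5.09%), 249 positive (1.42%) and 646 negative (3.68%). In the meiotic lists positive differences were more frequent than the 1.42% over all genes, though most members were not called. Meiotic entry gave 5 positive and 1 negative of 23, the axis 1 positive of 11 and cohesin 1 of 5. Recombination genes gave 4 positive and 1 negative of 36, and telomere attachment genes 2 positive of 8. These lists share members such as Sycp3, so their counts are not separate. In the males alone 5 of 11 axis genes, 2 of 5 cohesin genes and 14 of 30 methylation-sensitive germline genes were called higher and none lower. Male meiotic entry genes gave 2 rises and 3 falls, recombination genes 2 and 2, and telomere attachment genes 1 rise. Sycp3 went from 29.5 and 27.1 CPM to 74.7 and 72.4 CPM in males, a log2 change of 1.38 against 3.34 in females (difference 1.96 ± 0.33, adjusted p = 0.00455). Terb1 stood at 1.43 and 1.27 CPM and then 2.32 and 0.910 CPM in males (difference 4.21, adjusted p = 0.00422), and Majin at 0.421 and 0.734 CPM and then 0 counts and 0.0607 CPM. Stra8 reached 1.42 and 2.73 CPM in the E14.5 male libraries from 0 counts at E12.5, so its fitted changes cannot be compared as folds. The pluripotency gene Pou5f1 stood at 178 and 206 CPM and then at 210.4 and 243 CPM in males, where females fell (difference -1.73, adjusted p = 0.0211, and up to 0.108 without 1 of the 8 libraries). Tdgf1 stood at 147 and 143 CPM and then at 101 and 62.2 CPM in males.

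Among genes at 5 CPM or more without overlap of the stages, the largest positive differences between the sexes were Prom1, Unc5c, Majin, Hs3st3b1, Cfi and Ltbr, and the largest negative ones Ighm, Pmaip1, Enpep, Hesx1, Prss30 and Pde6b. Prom1, a membrane protein also called CD133, stayed at 46.4 and 50 CPM and then 41.1 and 39.4 CPM in female Tet1-KO (log2 -0.26 ± 0.29, adjusted p = 0.636), while in males it went from 13.4 and 9.07 CPM to 0 counts in both libraries (adjusted p of the difference 0.000148). Pmaip1, the p53 target NOXA, had 3.44 and 1.62 CPM at E12.5 and 0 counts in both E14.5 female libraries (adjusted p = 0.0454, and between 0.0791 and 0.213 without 1 library). In males it stood at 17.5 and 33.8 CPM and then at 342 and 415 CPM. The count of called differences was between 254 and 887 when 1 of the 8 libraries was left out.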

How the data were processed

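RNA-seq counts per gene of the Tet1 cross were deposited by the authors as 1 table of raw counts. Per the submitters' processing notes, reads went through Trimmomatic, TopHat2 2.0.2, Bowtie 0.12.8 and HTSeq 0.5.3p9 with mm9; strand use and the treatment of multimapping reads are not given in the sources used here, so genes with near-identical copies or antisense partners are uncertain. cDNA was amplified by PCR, so counts are not independent molecules. The 20 libraries (9616436 to 25899505 counts) were fitted together as 10 groups with edgeR 4.0.16 in R 4.3.3: filterByExpr (minimum count 10, total 15), TMM scaling, the robust quasi-likelihood test and Benjamini-Hochberg adjustment over 17567 genes. Every adjusted p comes from this fit unless another tool is named, and a gene is called at an adjusted p under 0.05. The ± marks an approximate standard error of a log2 change, its size divided by the square root of the test's F value. CPM use TMM-scaled totals. The 2 libraries of each female group differed beyond counting noise, so none was counted as a repeat. Promoters are from the RefSeq table, build GRCm38.p6, not the authors' mm9.

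Named were Tet1, the 12 largest rises and falls (5 CPM or more, no overlap), up to 4 called members per list with the smallest p or 2 where none was called, the 6 largest differences each way, and a fixed set of germ cell genes. A gene among the largest rises is not reported here. The comparisons, members and lists were chosen with earlier results of these data known. DESeq2 1.42.0, limma 3.58.1 and other scalings, filters and subsets of libraries served as alternatives. The fit was tested on simulated counts.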

Additional observations from a re-analysis of the deposited data

Results flagged for a closer look

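The stage change of 229 genes differed between female Tet1-KO and female Tet1-WT, and that of 895 genes differed between female and male Tet1-KO, each by a test of the difference itself (edgeR, adjusted p under 0.05). Of the genes given with values above, the Tet1-KO minus Tet1-WT difference on the log2 scale was -1.32 for Atr, -2.29 for Pcx, -2.08 for Pdlim5, 3.21 for Cdkn1c, 3.69 for Nr2f2 and 6.84 for Unc5c. The female minus male difference was 1.96 for Sycp3, 4.21 for Terb1 and -1.73 for Pou5f1.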

How the results depend on the processing

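With 2 libraries a group and a biological coefficient of variation of 0.46 the fit finds mainly large changes. In simulated counts of 16762 genes, drawn with the spread that edgeR estimated from these data, 200 genes were changed. There edgeR recovered 37.0% of 4-fold and 6.00% of 2-fold changes of the Tet1-KO comparison, with 2.27% false calls among 44 calls. DESeq2 gave 36.2% false calls in the same simulation, so its larger counts are given for completeness. For the difference between genotypes edgeR recovered 22% of 4-fold and 1% of 2-fold changes. The data gave 1939 edgeR calls in the Tet1-KO comparison, far more than the genes changed in the simulation, so these rates need not hold for the data. No paired analysis was possible because the table puts one header, without a replicate number, over both Tet1-KO libraries of a stage. Leaving out a library leaves 1 in its group, assumed to vary like the others.

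The 1939 calls in female Tet1-KO became 2936 with DESeq2 and 720 to 1227 without 1 library, and rises made up 36.4% of them, 43.8% with relative log expression scaling, 55% with plain totals, 49.5% with limma voom and 48.0% with the 2 groups alone. The 4446 calls in female Tet1-WT became 2456 to 3818 without 1 library, the lowest without E14.5 replicate 1. The 229 differences between genotypes became 864 without a filter, 946 with DESeq2, 362 with limma voom, 4 with only these groups, and 0 to 521 without 1 library; in the 2 cases with 0 by edgeR, 1857 and 1668 genes had an unadjusted p under 0.05. The 1821 calls in male Tet1-KO became 3051 with DESeq2, 5393 with limma voom, 4807 with only these groups, and 351 to 904 without 1 library. The 895 differences between the sexes became 1764 without a filter, 1934 with DESeq2, 2200 with limma voom, 1867 with only these groups, and 254 to 887 without 1 library. Plain totals moved the median of all genes by more than 0.1 in Tet1-WT (to -0.18), in the genotype difference (to 0.25) and in the sex difference (to 0.12). Except for fewer libraries or groups entering a fit, the cause of these shifts was not tested. Most named genes were picked by their calls, and nearly all called genes had stages without overlap. That a named change keeps its direction is thus largely set by the choice of genes. Of 103 genes named as called in Tet1-KO, 57 were called without each of the 4 libraries in turn, and no named change turned its direction in 1120 recomputed values.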

Other observations

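Some listed genes that were not called within Tet1-KO had a called difference from Tet1-WT, and are named here after their values were seen. Bub1, a kinase of the spindle checkpoint, stood at 424 and 392 CPM at E12.5 and at 469 and 525 CPM at E14.5 in Tet1-KO, while it had 329 and 289 CPM and then 931 and 666 CPM in Tet1-WT (difference -1.08 ± 0.22 on the log2 scale, adjusted p = 0.0290). Setdb1, a histone methyltransferase that silences transposons and germline genes, stood at 187 and 222 CPM and then 288 and 272 CPM in Tet1-KO, and at 159 and 129 CPM and then 537 and 471 CPM in Tet1-WT (difference -1.35 ± 0.31, adjusted p = 0.0441). In both genes the level in each Tet1-KO library was above that in each Tet1-WT library at E12.5 and below it at E14.5.

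Ccnd2, cyclin D2, stood at 8.69 and 12.1 CPM and then 6.00 and 15.6 CPM in Tet1-KO, with overlap, and at 130 and 200.3 CPM and then 22.2 and 10.49 CPM in Tet1-WT (difference 3.40 ± 0.69, adjusted p = 0.0290). H19, a maternally expressed imprinted RNA, stood at 19.7 and 18.0 CPM and then 15.9 and 9.63 CPM in Tet1-KO, and at 125 and 109 CPM and then 11.4 and 12.51 CPM in Tet1-WT (difference 2.72 ± 0.45, adjusted p = 0.0170). The differences of Bub1, Setdb1, Ccnd2 and H19 were not called without the second E12.5 Tet1-KO library or without E14.5 Tet1-WT replicate 1, when edgeR called none at all (1857 and 1668 genes had an unadjusted p under 0.05). For Ccnd2 and H19, as for Nr2f2, the levels were highest in the Tet1-WT libraries at E12.5, and those libraries also held the highest sums of mesenchyme markers, whose part was not tested. Of the testis supporting cell markers 2 of 17 were called lower in Tet1-KO, against 7.02% of all genes tested. The number was 0 when only these groups entered the fit. Summed, the 19 markers stood at 87.55 and 90.15 CPM at E12.5 and at 89.34 and 95.1 CPM at E14.5, so the sum did not fall. Sox9, which directs Sertoli cell fate, went from 0.745 and 1.62 CPM to 0 counts in both E14.5 libraries (adjusted p = 0.00156). Tet2, a related dioxygenase, was not called in Tet1-KO, at 37.0 and 38.3 CPM and then 35.5 and 25.6 CPM (adjusted p = 0.654).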
